A study of Caenorhabditis elegans with 48 samples.

Results

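The cytochrome P450 genes of *C. elegans* were taken as all genes of the deposited expression tables whose name starts with *cyp-* and a number. This rule gave 74 of 19885 genes, in 15 families by the number in the name, and used no measured value. All 48 libraries were poly(A) RNA of whole adults of the strain JDW259, which expresses the plant F-box protein TIR1 from the *eft-3* promoter together with the blue fluorescent protein mTagBFP2. It also carries the degron tag AID*::TEV::3xFLAG on *nhr-23*, the worm homolog of the nuclear receptor Ror. Mock animals and K-NAA animals therefore carried the same alleles. They differed in a transfer, 12 h before sampling started, to plates without or with 0.4 mM K-NAA. K-NAA is an auxin analog that lets TIR1 direct the tagged protein to breakdown. The concentration of 0.4 mM is that of the sample labels, and the methods of the study state a higher one. Before that transfer the animals had been kept from the L4 stage on FUdR, which blocks offspring. Both groups were sampled in constant conditions after temperature cycles, at 12 circadian time points (CT1 to CT23, every 2 h), from 2 plates each, which gave 24 libraries per condition. Age and time on the last plates, with or without K-NAA, therefore rose from CT1 to CT23. Their effects cannot be told apart from that of circadian time. Animals that lack the degron and received K-NAA were not analysed here. An effect of the compound and an effect of NHR-23 loss therefore cannot be told apart.

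Cytochrome P450 enzymes are heme proteins that insert an oxygen atom from molecular oxygen into their substrate. Most receive the electrons for this in the endoplasmic reticulum from cytochrome P450 reductase, the product of *emb-8* in *C. elegans*. Their substrates include drugs, plant and bacterial toxins, fatty acids and sterols. Many of the worm genes are expressed in the intestine and are induced by foreign compounds. K-NAA is itself a foreign small molecule. Other worm P450 genes make the worm's own molecules: *cyp-31A2* and *cyp-31A3* act with EMB-8 in the maternal synthesis of the lipid layer of the eggshell. *cyp-29A3* and *cyp-33E2* act in the conversion of polyunsaturated fatty acids to eicosanoids. The P450 that makes the steroid hormone dafachronic acid is named *daf-9* and is therefore not among the 74 genes.

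The values were TPM, a length-corrected share of the transcripts of a library, and TPM keeps no read depth. Genes with a value above 0 numbered 15165 to 15932 per mock library and 15239 to 16095 per K-NAA library. The values of the 2 plates of a time point correlated at 0.979 to 0.989. No library equalled another. *nhr-23* mRNA was 34 ± 3.16 TPM under mock versus 31.6 ± 1.86 TPM under K-NAA (SD, n = 24 libraries each), with a log2 fold change of -0.10 (limma adjusted p = 0.0226). The degron acts on the protein, so the mRNA is no check of the depletion or of the treatment labels. With replicate 2 left out, or after quantile normalization, the call on *nhr-23* was lost. In replicate 1 alone the value was -0.00051 (limma adjusted p = 0.995). In bulk RNA of whole animals, fewer cells of a type and less RNA per cell cannot be told apart. The K-NAA libraries of replicate 2 at CT1, CT7, CT11 and CT19 stood apart from the other 20 K-NAA libraries in *cyp-14A5* and *cyp-35A1*. Results were therefore also computed without these 4 libraries, a choice made after their values were seen. For *cyp-14A5* and *cyp-35A1* the results without them are shaped by that choice.

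The level of the cytochrome P450 genes spanned about 4 orders of magnitude. Their summed level was 513 ± 29.2 TPM (SD, n = 24) in mock, from 451 to 559.6 TPM. In K-NAA it was 525 ± 41.8 TPM (SD, n = 24), from 456 to 599 TPM, and the ranges overlapped. This share was held by few genes: the 3 highest genes accounted for 41.5% of the summed level, the 5 highest for 58.3% and the 10 highest for 79.8%. The 3 highest were *cyp-31A2*, *cyp-31A5* and *cyp-35A2*, followed by *cyp-31A3*, *cyp-35C1*, *cyp-14A5*, *cyp-35A3*, *cyp-44A1*, *cyp-25A1* and *cyp-25A2*. Averaged over all 48 libraries, 8 genes reached 10 TPM, 41 reached 1 TPM and 53 reached the 0.25 TPM required for testing. By position, 41 of the 74 genes lie on chromosome V, 12 on chromosome II, 7 each on chromosomes IV and X, 6 on chromosome III and 1 on chromosome I (WBcel235 annotation).

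**Figure D1:**
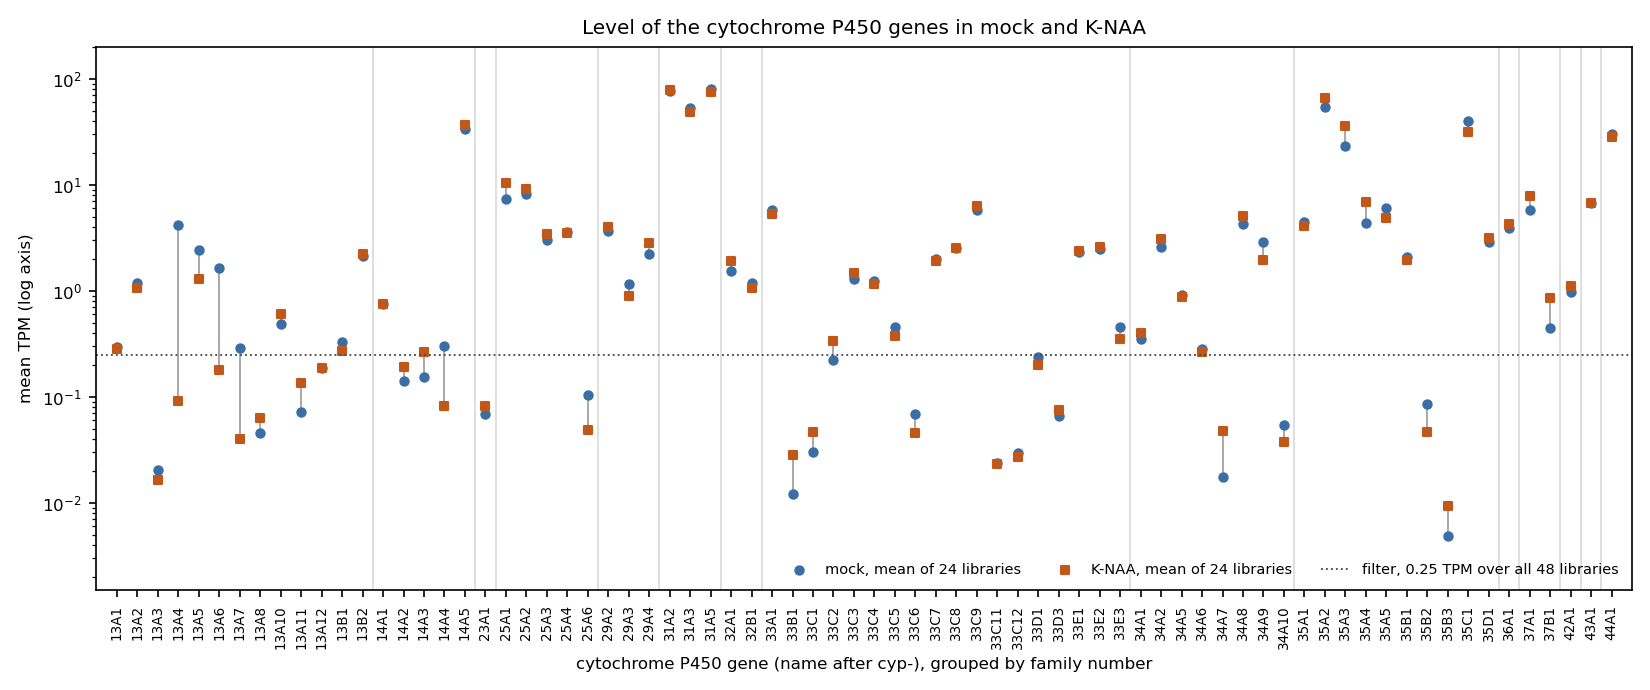
Mean TPM (log axis) of the 74 cytochrome P450 genes in mock (circles) and K-NAA (squares), each over 24 libraries, with a grey line joining the 2 means of a gene and grey vertical lines between families. The *cyp-31A* genes and *cyp-35A2* were the highest, 21 genes lay under the filter of 0.25 TPM over all libraries (dotted line), and the longest grey lines among the genes that were tested were those of *cyp-13A4* and *cyp-13A6*.

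K-NAA changed the level of 21 of the 53 tested cytochrome P450 genes (39.6%) at an adjusted p under 0.05 in limma, against 29.3% of all 13813 genes tested. Of the 53 genes, 11 were higher (20.8%, against 9.48% of all genes) and 10 were lower (18.9%, against 19.8% of all genes). The median log2 fold change was 0.0071 over the 53 genes and -0.020 over all genes. The changes were scattered over 9 of the families and ran in both directions within families 13, 29, 34 and 35. After median ratio rescaling of the libraries 17 of the genes were higher and 8 lower, and after quantile normalization 12 were higher and 8 lower. Of all 13813 genes, 1309 were higher and 2741 lower before rescaling. After median ratio rescaling these counts were 2082 and 2045, and after quantile normalization 2004 and 2071. The share of the calls over all genes that were higher thus moved from 32.3% to 50.4% and 49.2%. Without the 4 K-NAA libraries that stood apart, 11 of the 53 genes were higher and 9 lower, against 1263 and 2424 of all genes. Of the 21 calls, 8 were kept under every alternative in which the gene could be tested, each replicate alone included (*cyp-13A4*, *cyp-13A5*, *cyp-13A6*, *cyp-35A2*, *cyp-35A3*, *cyp-35C1*, *cyp-37A1* and *cyp-37B1*). The other 13 were lost in replicate 1 alone or in replicate 2 alone, where 12 libraries stood against 12.

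**Figure D2:**
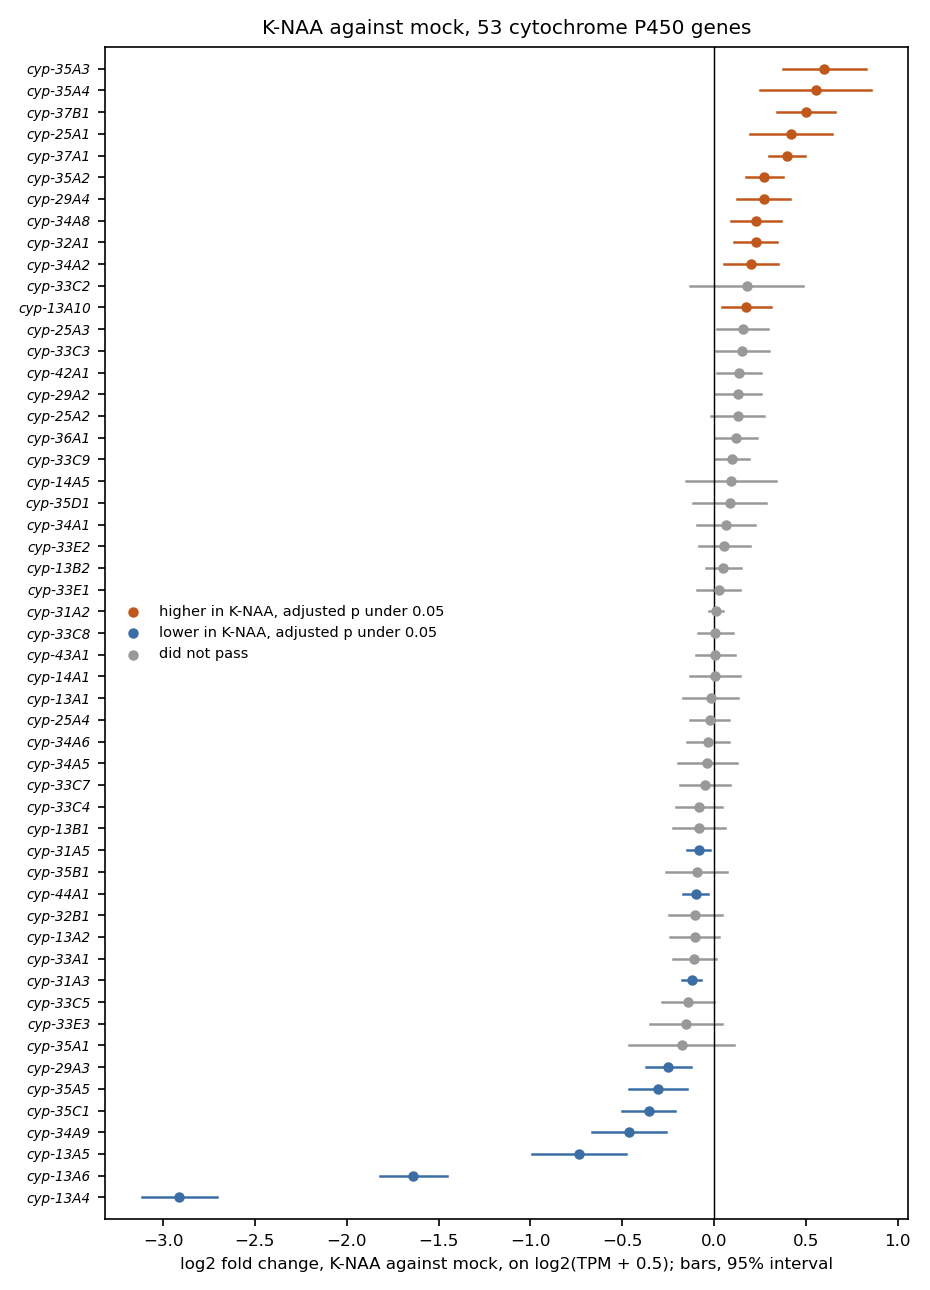
Log2 fold change of K-NAA over mock (log2(TPM + 0.5) scale) for the 53 tested cytochrome P450 genes, with the 95% interval as a bar. The 11 genes that were higher and the 10 that were lower at an adjusted p under 0.05 are coloured; *cyp-13A4* and *cyp-13A6* lie apart from the others on the lower side, and the highest value is that of *cyp-35A3*.

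The largest falls were in the *cyp-13A* genes of chromosome II. *cyp-13A4* (chromosome II, 9795756 to 9797740, minus strand) spanned 1.8 to 7.37 TPM across the mock libraries (median 3.68) and 0 to 0.309 TPM across the K-NAA libraries (median 0.0969). Every K-NAA library lay below every mock library, and the gene was listed at 0 in 7 of the 24 K-NAA libraries and in no mock library. Its mean was 45.2 times lower in K-NAA (4.15 ± 1.56 TPM under mock versus 0.0918 ± 0.0855 TPM under K-NAA, SD, n = 24). The log2 fold change was -2.91 ± 0.105 (SE; limma adjusted p = 4.39e-24), the 8th lowest and the 7th smallest p of the 13813 genes. K-NAA was lower at all 12 time points, with differences of -3.59 to -2.13 log2 units. *cyp-13A6* (chromosome II, 9800758 to 9802821, minus strand) spanned 0.657 to 2.69 TPM across the mock libraries (median 1.59) and 0 to 0.459 TPM across the K-NAA libraries (median 0.141). Here too the 2 groups of libraries did not overlap, K-NAA was lower at all 12 time points, and 3 K-NAA libraries were listed at 0. The log2 fold change of *cyp-13A6* was -1.64 ± 0.0931 (SE; limma adjusted p = 1.60e-17). Over all genes tested, every K-NAA library lay below every mock library for 39 genes (0.282%), and 37 genes (0.268%) fell by at least 1 log2 unit at an adjusted p under 0.05. Both counts held these 2 *cyp-13A* genes and no other P450 gene. No P450 gene had every K-NAA library above every mock library (0.0652% of all genes).

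*cyp-13A5*, which lies between these 2 genes (chromosome II, 9798277 to 9800362, minus strand), spanned 1.39 to 5.84 TPM across the mock libraries (median 2.03) and 0.336 to 3.0 TPM across the K-NAA libraries (median 1.22). The groups overlapped, and the K-NAA mean was below mock at 11 of the 12 time points. The exception was CT7, where the K-NAA plates gave 3.0 and 2.95 TPM and the mock plates 2.86 and 1.98 TPM. The log2 fold change was -0.74 ± 0.13 (SE; limma adjusted p = 2.72e-05). The value of *cyp-13A5* was thus nearer 0 than those of its neighbours, a difference that was not tested. Both replicates showed the fall, from 2.04 ± 0.538 to 1.42 ± 0.607 TPM in replicate 1 and from 2.81 ± 1.26 to 1.15 ± 0.774 TPM in replicate 2 (SD, n = 12 libraries each).

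The 3 genes belong to a run of 8 *cyp-13A* genes on chromosome II from 9779181 to 9807569, in the order *cyp-13A1*, *cyp-13A2*, *cyp-13A3*, *cyp-13A4*, *cyp-13A5*, *cyp-13A6*, *cyp-13A7* and *cyp-13A8*. *cyp-13A7*, the next gene and on the other strand, is known to be induced by the drug rifampicin. Its mean over both conditions was below the filter, although its mock mean of 0.288 TPM was not, so it was not tested. Its values were looked at because of its place in the run. It spanned 0 to 0.727 TPM across the mock libraries (median 0.265) and 0 to 0.103 TPM across the K-NAA libraries (median 0.0494). It was listed at 0 in 2 mock and 11 K-NAA libraries, and its K-NAA mean lay below mock at 12 of 12 times. *cyp-13A8*, at the end of the run, averaged 0.0458 ± 0.0496 TPM under mock versus 0.063 ± 0.0605 TPM under K-NAA. *cyp-13A3* averaged 0.0206 ± 0.0322 and 0.0164 ± 0.0313 TPM, and neither exceeded 0.215 TPM in any library. The first 2 genes of the run did not pass the test, with log2 fold changes of -0.019 (limma adjusted p = 0.885) for *cyp-13A1* and -0.11 (limma adjusted p = 0.264) for *cyp-13A2*. Of the 3 nearest genes on the *cyp-13A1* side, *aqp-10*, an aquaporin gene, was lower by a smaller amount (-0.26, adjusted p = 4.07e-06 in limma), and *ZK1321.4* (-0.022, adjusted p = 0.743) and *T10B9.9* (-0.15, adjusted p = 0.415) did not pass. The *cyp-13A* genes outside the run went another way or were too low. *cyp-13A10* had a log2 fold change of 0.18 (limma adjusted p = 0.0496), a call that was lost with 32 of the single libraries left out and in each replicate alone, and *cyp-13A11* and *cyp-13A12* were below the filter. How reads shared by similar *cyp-13A* copies were divided between them was not tested.

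**Figure D3:**
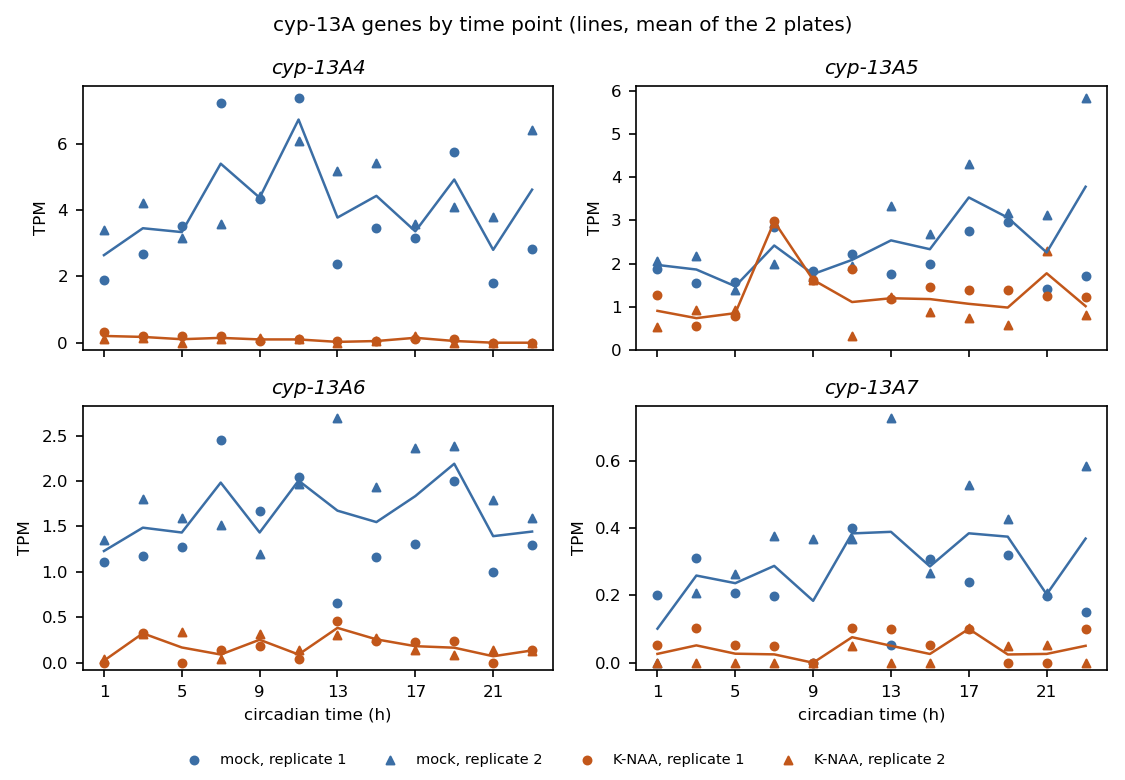
TPM of *cyp-13A4*, *cyp-13A5*, *cyp-13A6* and *cyp-13A7* against circadian time in hours, mock in blue and K-NAA in orange, with circles for replicate 1, triangles for replicate 2 and lines through the means of the 2 plates. For *cyp-13A4* and *cyp-13A6* the K-NAA libraries stay at or below 0.459 TPM over the whole day, while the K-NAA plates of *cyp-13A5* reach the mock level at CT7.

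The *cyp-35* family, whose *cyp-35A* genes respond to many foreign compounds and act in fat storage in the intestine, had 3 genes that rose, 2 that fell and 3 that did not pass among the 8 tested. *cyp-35A3* (chromosome V, 4022609 to 4024482, plus strand) spanned 12.9 to 37.2 TPM across the mock libraries (median 22.2) and 18.7 to 56.1 TPM across the K-NAA libraries (median 38), with the K-NAA mean above mock at 10 of the 12 time points and overlapping groups. Its log2 fold change was 0.60 ± 0.115 (SE; limma adjusted p = 8.46e-05). *cyp-35A2* (chromosome V, 7362319 to 7364182, minus strand), the third highest P450 gene, spanned 44.1 to 69.96 TPM across the mock libraries (median 56.2) and 49.6 to 88.9 TPM across the K-NAA libraries (median 65.6), and was higher at 11 of the 12 time points. The rise of *cyp-35A2* was smaller, with a log2 fold change of 0.27 ± 0.0511 (SE; limma adjusted p = 5.67e-05). It was present in both replicates (from 53.4 ± 7.67 to 65.3 ± 11.9 TPM in replicate 1 and from 55.2 ± 6.49 to 66.8 ± 10.2 TPM in replicate 2, SD, n = 12 each). *cyp-35A4* spanned 2.1 to 8.0 TPM across the mock libraries (median 4.01) and 2.76 to 12.4 TPM across the K-NAA libraries (median 7.01). Its log2 fold change was 0.55 ± 0.154 (SE; limma adjusted p = 0.00529), a call that was lost in each replicate alone. At CT13 and CT23 the K-NAA means of the 3 genes that rose lay near or below mock. The log2 differences at CT13 were -0.045 for *cyp-35A2*, -0.089 for *cyp-35A3* and -0.53 for *cyp-35A4*. At CT23 they were 0.0083, -0.50 and -0.77. *cyp-35A4* was also below mock at CT21 (-0.17). The CT23 plates of *cyp-35A3* gave 21.5 and 20.6 TPM in K-NAA against 31.2 and 28.6 TPM in mock. The dependence of the difference on the time point was not tested.

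*cyp-35C1* (chromosome V, 13896663 to 13898487, minus strand) spanned 27.9 to 52.9 TPM across the mock libraries (median 39.96) and 19.2 to 43.7 TPM across the K-NAA libraries (median 32.5). Its K-NAA mean lay below mock at all 12 times, although the groups overlapped. The log2 fold change was -0.36 ± 0.0727 (SE; limma adjusted p = 0.000199). *cyp-35A5* spanned 4.15 to 10.5 TPM across the mock libraries (median 6.06) and 2.25 to 8.06 TPM across the K-NAA libraries (median 4.69). Its log2 fold change was -0.31 ± 0.080 (SE; limma adjusted p = 0.00299), with the K-NAA mean below mock at 9 of the 12 time points, and its call was lost in each replicate alone. *cyp-35A1* spanned 2.06 to 8.75 TPM across the mock libraries (median 4.24) and 1.6 to 10.3 TPM across the K-NAA libraries (median 3.65). It did not pass, with -0.18 (limma adjusted p = 0.40). Without the 4 libraries that stood apart it was -0.37 (limma adjusted p = 0.0238) and passed. These 4 were picked in part for their high *cyp-35A1* values. Leaving them out had to lower the K-NAA mean, so this pass is no support for a fall. The remaining tested genes of the family, *cyp-35B1* (-0.095, limma adjusted p = 0.439), a gene known to respond to the transcription factor DAF-16, and *cyp-35D1* (0.085, limma adjusted p = 0.579), did not pass, and *cyp-35B2* and *cyp-35B3* were below the filter.

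**Figure D4:**
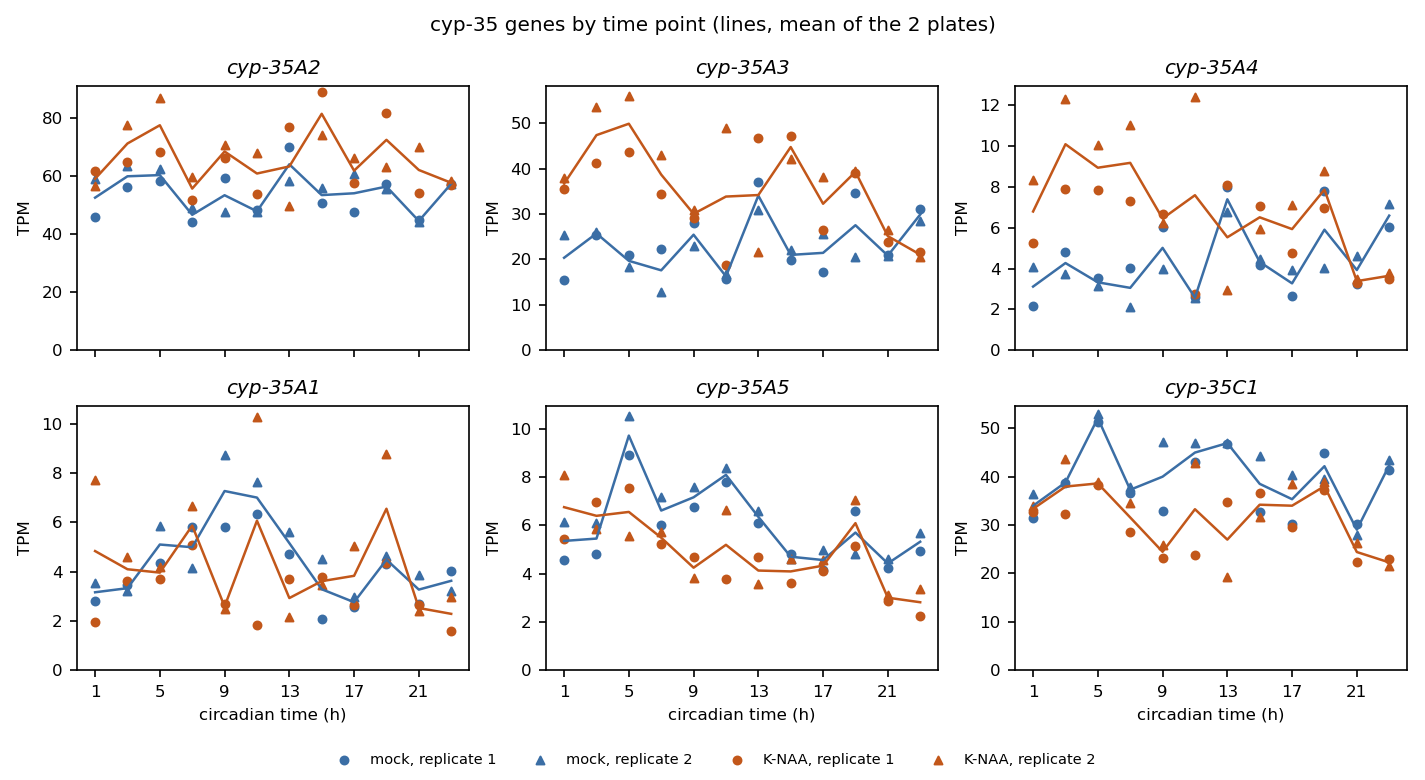
TPM of 6 genes of the *cyp-35* family against circadian time in hours, mock in blue and K-NAA in orange, circles for replicate 1, triangles for replicate 2, lines through the means of the 2 plates. The K-NAA line lies above the mock line at 11, 10 and 9 of the 12 time points for *cyp-35A2*, *cyp-35A3* and *cyp-35A4*, and below it at all 12 for *cyp-35C1*.

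Levels of *cyp-35A3* and *cyp-35A4* went together from library to library (Pearson's r of log2 values 0.94 over the 24 mock libraries and 0.91 over the 24 K-NAA libraries), more closely than those of *cyp-35A2* and *cyp-35A3* (0.64 and 0.71), whereas *cyp-35A1* and *cyp-35A2* had values of -0.0091 and 0.19. These values are descriptions over shared libraries, and reads of similar *cyp-35A* copies may have been divided between genes in the quantification.

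Both genes of family 37 rose. *cyp-37A1* (chromosome II, 14013819 to 14016965, minus strand) spanned 4.3 to 7.35 TPM across the mock libraries (median 5.69) and 5.41 to 10.4 TPM across the K-NAA libraries (median 7.61). The K-NAA mean was above mock at all 12 times, and the effect was 0.40 ± 0.0502 (SE; limma adjusted p = 6.29e-08) log2 units, the smallest p among the P450 genes that rose. *cyp-37B1* (chromosome V, 16278116 to 16280616, plus strand), a low gene, spanned 0.184 to 0.734 TPM across the mock libraries (median 0.414) and 0.409 to 1.45 TPM across the K-NAA libraries (median 0.858), also higher at all 12 time points. Its log2 fold change was 0.50 ± 0.0807 (SE; limma adjusted p = 6.44e-06), and the ratio of the means was 1.9. The groups overlapped for both genes, and both calls stood in each replicate alone.

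The other rises were smaller or less stable. *cyp-25A1*, on chromosome III with *cyp-25A2*, *cyp-25A3* and *cyp-25A4*, spanned 4.44 to 11 TPM across the mock libraries (median 7.23) and 3.64 to 21.6 TPM across the K-NAA libraries (median 10.6). Its log2 fold change was 0.42 ± 0.114 (SE; limma adjusted p = 0.00422). In replicate 1 it went from 6.76 ± 1.52 to 11.3 ± 3.37 TPM (SD, n = 12 each), and in replicate 2 alone the effect was 0.17 (limma adjusted p = 0.553). The difference between the replicates had a limma adjusted p of 0.127. *cyp-25A2*, its neighbour, was 8.17 ± 1.53 TPM under mock versus 9.13 ± 2.4 TPM under K-NAA (SD, n = 24) and did not pass (0.13, limma adjusted p = 0.191). It passed without the 4 libraries that stood apart (0.21, limma adjusted p = 0.0204) and in replicate 1 alone (0.34, limma adjusted p = 0.00469). The 4 libraries gave 5.95 to 6.8 TPM for *cyp-25A2*, against a median of 9.6 TPM in the other 20. Leaving them out therefore had to raise the K-NAA mean. *cyp-25A3* (0.16, limma adjusted p = 0.0911) and *cyp-25A4* (-0.024, limma adjusted p = 0.784) did not pass. In family 29, *cyp-29A4* rose (2.21 ± 0.433 TPM under mock versus 2.85 ± 0.936 TPM under K-NAA, log2 fold change 0.27, limma adjusted p = 0.00438). *cyp-29A3*, an eicosanoid-producing enzyme, fell (1.16 ± 0.265 TPM under mock versus 0.904 ± 0.257 TPM under K-NAA, -0.25, limma adjusted p = 0.0021), and *cyp-29A2* (3.66 ± 0.698 TPM under mock versus 4.04 ± 0.619 TPM under K-NAA) did not pass. The calls on *cyp-29A4* and *cyp-29A3* were lost in replicate 2 alone, with 0.16 (limma adjusted p = 0.222) and -0.18 (limma adjusted p = 0.199).

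Family 34 also held genes that moved in opposite directions side by side. *cyp-34A8* and *cyp-34A9* are neighbours on the minus strand of chromosome V, in a run from 3936326 to 3972991 that also holds *cyp-35A5* and *cyp-35B1*. *cyp-34A8* spanned 2.9 to 6.01 TPM across the mock libraries (median 4.33) and 3.98 to 7.8 TPM across the K-NAA libraries (median 4.9). It rose, with 0.23 (limma adjusted p = 0.0119). *cyp-34A9*, a gene known to respond to DAF-16, spanned 1.75 to 5.16 TPM across the mock libraries (median 2.67) and 1.24 to 4.36 TPM across the K-NAA libraries (median 1.73). It had a log2 fold change of -0.46 (limma adjusted p = 0.000548). The 2 neighbours thus differed in sign, at 11 of the 12 time points higher for *cyp-34A8* and 10 of the 12 time points lower for *cyp-34A9*. The tested genes *cyp-34A5* (-0.037, limma adjusted p = 0.78) and *cyp-34A6* (-0.032, limma adjusted p = 0.723) of the same run did not pass. The rise of *cyp-34A8* was lost in each replicate alone, and the fall of *cyp-34A9* in replicate 1 alone (-0.37, limma adjusted p = 0.101). *cyp-34A2* (0.20, limma adjusted p = 0.0389) was called, but not in 18 of the single-library fits or in either replicate alone. The rise of *cyp-32A1* (1.55 ± 0.253 TPM under mock versus 1.91 ± 0.318 TPM under K-NAA, 0.23, limma adjusted p = 0.00335) was lost in replicate 1 alone. *cyp-32B1* (1.19 ± 0.313 TPM under mock versus 1.07 ± 0.258 TPM under K-NAA) did not pass.

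Among the *cyp-31A* genes were the 2 highest P450 genes, *cyp-31A2* and *cyp-31A5*, and differences were small. *cyp-31A2* was 77.4 ± 3.39 TPM under mock versus 78 ± 4.05 TPM under K-NAA (SD, n = 24), *cyp-31A5* 79.8 ± 5.02 TPM under mock versus 75.5 ± 6.99 TPM under K-NAA and *cyp-31A3* 53.1 ± 2.52 TPM under mock versus 48.9 ± 3.31 TPM under K-NAA. *cyp-31A3* fell, a call lost in replicate 1 alone, with an effect of -0.12 ± 0.0259 (SE; limma adjusted p = 0.000348) and a lower mean at all 12 times. *cyp-31A2*, its partner in eggshell lipid synthesis, did not pass (0.010, limma adjusted p = 0.739), but was higher after quantile normalization (0.062, limma adjusted p = 0.00776). Whether the effect differed between *cyp-31A2* and *cyp-31A3* was not tested. How reads shared by similar *cyp-31A* copies were divided between them was not tested either. The call on *cyp-31A5* (-0.082, limma adjusted p = 0.0478) was lost with 29 of the single libraries left out, under both rescalings and in replicate 1 alone. *cyp-44A1*, the gene of the mitochondrial class of P450 enzymes, was 30.1 ± 2.79 TPM under mock versus 28 ± 1.69 TPM under K-NAA, with a log2 fold change of -0.10 (limma adjusted p = 0.0221) that was lost under both rescalings, in replicate 1 alone, without the 4 libraries that stood apart, and with CT3, CT7 or CT9 left out. Of 10 oocyte and eggshell genes, 5 fell and none rose, while 19.8% of all genes fell and 9.48% rose. After median ratio rescaling 4 of the 10 fell and 1 rose, and after quantile normalization 4 fell and none rose. Their summed level ranged over 7715 to 9075 TPM under mock and 7672 to 8597 TPM under K-NAA, and none of them was at 0 in all libraries. Of 6 germline genes 3 fell and 1 rose (*glh-1*), and after either rescaling 2 fell and 1 rose. The part of oocyte RNA in the fall of *cyp-31A3* was not tested.

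In family 33, the largest with 18 genes, none of the 11 tested genes passed in limma, while 2 had an unadjusted p under 0.05 (38.7% of all genes) and 2 were called higher after median ratio rescaling. *cyp-33C9* (5.86 ± 0.747 TPM under mock versus 6.29 ± 0.693 TPM under K-NAA, SD, n = 24) and *cyp-33A1* (5.79 ± 1.01 TPM under mock versus 5.3 ± 0.666 TPM under K-NAA) were the highest of them. The eicosanoid-producing *cyp-33E2* was 2.5 ± 0.544 TPM under mock versus 2.6 ± 0.463 TPM under K-NAA. Of the small families, *cyp-36A1*, which acts downstream of the hypoxia factor HIF-1, was 3.91 ± 0.765 TPM under mock versus 4.27 ± 0.675 TPM under K-NAA and did not pass. The same was true of *cyp-42A1* (0.968 ± 0.245 TPM under mock versus 1.11 ± 0.226 TPM under K-NAA), *cyp-43A1* (6.76 ± 0.942 TPM under mock versus 6.77 ± 0.818 TPM under K-NAA), *cyp-13B2* (2.13 ± 0.35 TPM under mock versus 2.22 ± 0.323 TPM under K-NAA), *cyp-14A1* (0.754 ± 0.226 TPM under mock versus 0.749 ± 0.188 TPM under K-NAA) and *cyp-14A5* (33.4 ± 9.9 TPM under mock versus 36.7 ± 16.3 TPM under K-NAA). The 95% interval of the log2 fold change was -0.10 to 0.11 for *cyp-43A1* and -0.15 to 0.34 for *cyp-14A5*.

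The 21 genes below the filter had means from 0.0071 to 0.219 TPM, and their highest single library was 0.742 TPM. They were *cyp-13A3*, *cyp-13A7*, *cyp-13A8*, *cyp-13A11*, *cyp-13A12*, *cyp-14A2*, *cyp-14A3*, *cyp-14A4*, *cyp-23A1*, *cyp-25A6*, *cyp-33B1*, *cyp-33C1*, *cyp-33C6*, *cyp-33C11*, *cyp-33C12*, *cyp-33D1*, *cyp-33D3*, *cyp-34A7*, *cyp-34A10*, *cyp-35B2* and *cyp-35B3*, and none was at 0 in all libraries. Besides *cyp-13A7*, *cyp-14A4* was singled out after its values were seen. It spanned 0.0556 to 0.676 TPM across the mock libraries (median 0.258) and 0 to 0.228 TPM across the K-NAA libraries (median 0.0551). Its K-NAA mean lay below mock at 12 of 12 times, with overlapping groups. It lies on the X chromosome beside *cyp-14A1*, *cyp-14A2* and *cyp-14A3*. *cyp-14A3*, also below the filter, averaged 0.154 ± 0.10 TPM under mock versus 0.265 ± 0.142 TPM under K-NAA.

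A 24 h rhythm was tested within each condition as the fit of a cosine and a sine term. The study used another test, BioCycle, over a range of periods, so its counts are not comparable with those here. In mock, 5 of the 53 genes (9.43%) passed at an adjusted p under 0.30 in limma, against 11.7% of all genes. The study set the number 0.30 for the q of its own test. At 0.05, 1 gene (1.89%) passed, against 1.12%. *cyp-35A5* had a fitted range of 0.68 log2 units from trough to peak, a peak at CT7.71 and a limma adjusted p of 0.0297. Its mock plates gave 8.9 and 10.5 TPM at CT5 and 7.79 and 8.38 TPM at CT11, above every plate from CT15 on, such as 4.15 and 4.97 TPM at CT17 and 4.22 and 4.62 TPM at CT21. *cyp-35A1* had a fitted range of 0.87 log2 units from trough to peak, a peak at CT9.23 and a limma adjusted p of 0.0584. Its mock plates were 5.79 and 8.75 TPM at CT9 and 2.54 and 2.97 TPM at CT17. These 2 genes peaked in the first part of the day. Their Pearson's r was 0.70 over the 24 mock libraries, with time point means left in. Over the 24 K-NAA libraries, where neither gene passed at 0.30, it was 0.73 (0.60 without the 4 libraries that stood apart). *cyp-14A5* had a fitted range of 0.69 and a peak at CT12.2 (limma adjusted p = 0.171). *cyp-25A2* had a range of 0.40 and a peak at CT17.8 (limma adjusted p = 0.192). The low *cyp-34A1* had a range of 0.40 and a peak at CT20.6 (limma adjusted p = 0.161). None of the 5 passed in either replicate alone or after a drift term was added. With the drift term, 2 of all 13813 genes passed at 0.30 in place of 1611. A replicate alone held 12 of the 24 mock libraries. With libraries, time points or replicates left out, 0 to 1886 of all genes passed at 0.30.

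In K-NAA, 1 of the 53 genes (1.89%) passed at 0.30, against 0.746% of all genes, and none passed at 0.05, where 0 of all genes did and 4 of the 53 had an unadjusted p under 0.05 (7.28% of all genes). The gene was *cyp-35B1*, with a fitted range of 0.67 log2 units from trough to peak, a peak at CT18.3 and a limma adjusted p of 0.245. It spanned 1.12 to 3.44 TPM across the K-NAA libraries (median 1.87), with 3.44 and 2.5 TPM at CT15 and 1.27 and 1.22 TPM at CT7. The call was lost without the 4 libraries that stood apart (adjusted p = 0.401) and in 12 of the single-library fits. The difference in rhythm between the conditions passed for none of the 53 genes at 0.30 in limma (0.00724% of all genes, a single gene), with 1 gene, *cyp-35A4*, at an unadjusted p under 0.05 (0.0466), against 4.83% of all genes. A rhythm passing in mock and not in K-NAA was therefore not shown to differ between them for any of these genes. *cyp-35A5* had an unadjusted p of 0.372 for the difference (adjusted p = 1.0 from limma), with fitted ranges of 0.68 in mock and 0.50 in K-NAA.

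The replicates were compared within each condition, over 12 libraries each. In mock, 2 of the 53 genes (3.77%) were higher in replicate 2 at an adjusted p under 0.05, against 16.2% of all genes, and none was lower (0.695% of all genes). *cyp-33C3* was 1.05 ± 0.234 TPM in replicate 1 and 1.55 ± 0.298 TPM in replicate 2 (SD, n = 12; log2 difference 0.41, adjusted p = 0.00649 from limma). *cyp-25A2* was 7.47 ± 1.17 and 8.87 ± 1.56 TPM (0.23, adjusted p = 0.0109). In K-NAA none of the 53 genes passed in limma (0% of all genes), and 5 had an unadjusted p under 0.05, against 19.9% of all genes. The smallest p there was that of *cyp-14A5*, at 29.5 ± 8.31 TPM (replicate 1) and 43.9 ± 19.4 TPM (replicate 2; SD, n = 12; log2 difference 0.50, adjusted p = 0.0727 from limma), a difference that passed with CT21 or either of its K-NAA libraries left out. Without the 4 libraries described next it was 0.23 (limma adjusted p = 0.573). These 4 were picked for their high *cyp-14A5* values in replicate 2, so leaving them out had to shrink the difference. The effect of K-NAA was lower in replicate 2 than in replicate 1 for 3 genes (*cyp-33C3*, *cyp-31A3* and *cyp-25A2*), against 15.1% of all genes.

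The spread of *cyp-14A5* in replicate 2 of K-NAA lay in 4 libraries. At CT1, CT7, CT11 and CT19 they gave 59.5, 69.2, 59.5 and 85.1 TPM, above the other 20 K-NAA libraries, which ranged from 19 to 51 TPM (median 28.7), and above all 24 mock libraries (at most 56 TPM). The same 4 libraries were the highest of K-NAA in *cyp-35A1*, with 7.71, 6.67, 10.3 and 8.76 TPM against 1.6 to 5.07 TPM in the other 20. These 4 libraries were picked for their values in *cyp-14A5* and *cyp-35A1*, so their standing apart in *cyp-35A1* is not a separate result. In *cyp-25A1* they were among the lowest, with 5.79, 3.64, 5.38 and 6.4 TPM against a median of 11.55 TPM in the others. The replicate 1 plates at these time points spanned 23.1 to 51 TPM for *cyp-14A5*. Pearson's r of *cyp-14A5* and *cyp-35A1* was 0.56 over the mock libraries and 0.89 over the K-NAA libraries, and 0.77 over the 20 K-NAA libraries without the 4. For the neighbours *cyp-25A1* and *cyp-25A2* it was 0.79 in mock and 0.91 in K-NAA.

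**Figure D5:**
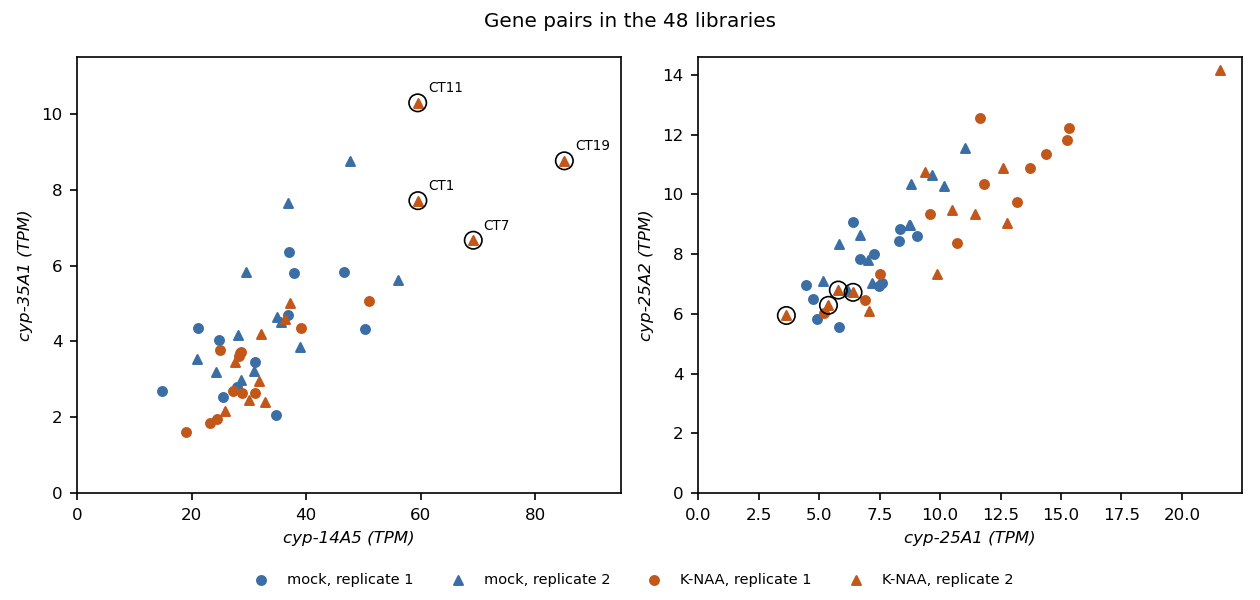
TPM of *cyp-35A1* against *cyp-14A5* (left) and of *cyp-25A2* against *cyp-25A1* (right), a point per library, mock in blue and K-NAA in orange, circles for replicate 1 and triangles for replicate 2; black rings mark the K-NAA libraries of replicate 2 at CT1, CT7, CT11 and CT19. The 4 ringed libraries lie to the right of all others in *cyp-14A5* and at the low end of *cyp-25A1* and *cyp-25A2*.

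Among the genes that serve P450 enzymes, 9 of 10 electron donor and heme transport genes were tested, and 1 rose and 4 fell. Over all genes tested, 9.48% rose and 19.8% fell. After either rescaling 1 of the 9 genes rose and 2 fell. *hrg-7*, an aspartic protease gene of heme signalling, rose (102 ± 15.2 TPM under mock versus 129.8 ± 41.8 TPM under K-NAA, SD, n = 24; log2 fold change 0.30, limma adjusted p = 0.00323). *hrg-2*, a heme-binding membrane protein gene of the hypodermis, had -0.38 (limma adjusted p = 0.00292) and *hrg-3*, whose product carries heme from the mother's intestine to oocytes, -0.47 (limma adjusted p = 0.0217). *cytb-5.1*, a cytochrome b5 gene, had -0.090 (limma adjusted p = 0.0131) and the reductase gene *emb-8*, named here for its role, -0.082 (limma adjusted p = 0.0282); these small falls were lost under both rescalings. The calls on *hrg-2* and *hrg-3* were lost in replicate 2 alone and that on *hrg-7* in replicate 1 alone.

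None of the 6 tested genes of the dafachronic acid pathway passed in limma (29.3% of all genes did), and 2 had an unadjusted p under 0.05 (38.7% of all genes). The 2 were *strm-1*, a sterol methyltransferase gene (-0.17, limma adjusted p = 0.0745), and *daf-36*, a Rieske oxygenase gene (-0.16, limma adjusted p = 0.0793), both of which passed in replicate 2 alone, with -0.27 (limma adjusted p = 0.0397) and -0.31 (limma adjusted p = 0.0279). The P450 gene *daf-9* was near the filter at 0.291 ± 0.112 TPM under mock versus 0.237 ± 0.116 TPM under K-NAA. Of 6 epoxide hydrolase and flavin monooxygenase genes, 1 rose, against 9.48% of all genes: *fmo-3* (3.42 ± 0.625 TPM under mock versus 4.68 ± 0.946 TPM under K-NAA; log2 fold change 0.40, limma adjusted p = 2.91e-05, lost in replicate 1 alone). *fmo-4* did not pass (0.081, limma adjusted p = 0.167) but did under both rescalings.

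Among 18 genes of known regulators of xenobiotic and P450 genes, 1 rose and 3 fell, against 9.48% and 19.8% of all genes. After median ratio rescaling 1 rose and 2 fell, and after quantile normalization 1 rose and 1 fell. *nhr-8*, a nuclear receptor gene of xenobiotic resistance, rose (3.8 ± 0.728 TPM under mock versus 4.52 ± 0.827 TPM under K-NAA; log2 fold change 0.23, limma adjusted p = 0.0163), a call lost in replicate 2 alone and with CT15 left out. *nhr-86*, another nuclear receptor gene, fell from 21 ± 2.02 to 17.9 ± 1.36 TPM (-0.22, limma adjusted p = 7.61e-06) under every alternative. *daf-16*, the FOXO factor gene, had -0.12 (limma adjusted p = 0.00326), lost in replicate 1 alone and after quantile normalization, and *pqm-1* -0.16 (limma adjusted p = 0.0455), lost with 29 of the single libraries left out. The other 14, among them *ahr-1*, *hif-1*, *skn-1*, *nhr-49* and *mdt-15*, did not pass.

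Marker genes of the tissues were read beside these results. Over all genes tested, 9.48% rose and 19.8% fell. Of 9 tested intestinal genes, 3 rose (*asp-1*, *ifc-2* and *vha-6*) and 1 fell (*mtm-6*). The fall of *mtm-6* was lost under both rescalings. After median ratio rescaling 3 intestinal genes rose, and after quantile normalization 4 rose. The summed level of the intestinal genes ranged over 832 to 1066 TPM under mock and 900.1 to 1568 TPM under K-NAA, wider in K-NAA. *asp-1*, a protease gene, gave most of it, with 534 ± 49.4 TPM under mock versus 747 ± 196 TPM under K-NAA. The lineage factor *elt-2* (0.070, limma adjusted p = 0.302) and the esterase gene *ges-1* (-0.054, limma adjusted p = 0.45) did not pass, and no intestinal marker was at 0 in all libraries. Hypodermis gave 2 higher and 0 lower of 8, embryo 1 higher and 0 lower of 7, neuron 1 higher and 1 lower of 7, body wall muscle 1 higher and 0 lower of 6 and pharynx 2 higher and 0 lower of 5. After either rescaling hypodermis gave 3 higher and body wall muscle 2, while the counts of embryo, neuron and pharynx stayed the same. No sperm gene passed in limma, none of 6 with an unadjusted p under 0.05 (38.7% of all genes), and their summed level ranged over 2.2 to 57.7 TPM under mock and 2.21 to 44.4 TPM under K-NAA. The part of tissue composition in the changes of the P450 genes was not tested.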

How the data were processed

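Whole-worm poly(A) RNA of 48 libraries was analysed from the tables of TPM values deposited by the authors, who ran Salmon on WormBase mRNA sequences. The submitters' notes list the build ce10, and no source used here describes the step from transcripts to genes. The authors' columns of rhythm statistics (p, q, period, lag, amplitude) in the same tables were not used. Groups, time points and replicates came from the sample titles. The study states a read number for its libraries, but the depth of each library is not known here. The spread between libraries is thus the only measure of precision, and p-values measure the spread left by each fit. In the level fit this also holds differences between the conditions that vary with time. In the rhythm fits it also holds time differences that a 24 h curve does not describe. The fits treated the libraries as independent, although 16.9% of all genes differed between the mock replicates at an adjusted p under 0.05.

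The 13813 genes averaging 0.25 TPM or more were tested with limma 3.58.1 (R 4.3.3) after log2(TPM + 0.5) transformation, with an intensity trend in the empirical Bayes step and Benjamini-Hochberg adjustment over all of them. A fold change on this scale understates the change of low genes. The level was fitted with the time point as a factor, the rhythm with cosine and sine terms of 24 h in each condition, the difference in rhythm as an interaction, and the replicates with a replicate term; intervals of 95% are from the standard error. The script was tested on simulated data. Genes named are the members that pass a test, the 10 highest, the 2 highest of each family, the smallest p of each test and up to 4 genes of each other list; further members of a described run or family, and genes named for their role, were chosen with their values seen. The members, lists and rules were chosen with earlier results of these data known. All 74 genes were located by name in Ensembl's WBcel235 annotation. The closing section gives the effect of pseudocounts of 0.1 and 1, other filters, 2 rescalings, a replicate block, a drift, periods of 20 and 28 h, no time point term, and libraries, time points and replicates left out.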

Additional observations from a re-analysis of the deposited data

Results flagged for a closer look

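The effect of K-NAA differed between the 2 replicates, by a test of the interaction, for 3 of the 53 cytochrome P450 genes at an adjusted p under 0.05, lower in replicate 2 in each, against 15.1% of all 13813 genes. *cyp-33C3* had a difference of -0.39 (SE 0.116, limma adjusted p = 0.0177), from 1.05 ± 0.234 TPM (mock) to 1.46 ± 0.238 TPM (K-NAA) in replicate 1, and 1.55 ± 0.298 and 1.49 ± 0.217 TPM in replicate 2 (SD, n = 12 libraries each); the mock level differed between the replicates and the K-NAA level did not pass that test. *cyp-31A3* had a difference of -0.14 (SE 0.0462, limma adjusted p = 0.0273), from 52.2 ± 2.21 TPM (mock) to 50.4 ± 2.71 TPM (K-NAA) in replicate 1, and 54.1 ± 2.54 and 47.3 ± 3.17 TPM in replicate 2 (SD, n = 12 libraries each). *cyp-25A2* had a difference of -0.41 (SE 0.134, limma adjusted p = 0.0296), from 7.47 ± 1.17 TPM (mock) to 9.7 ± 2.23 TPM (K-NAA) in replicate 1, and 8.87 ± 1.56 and 8.57 ± 2.51 TPM in replicate 2 (SD, n = 12 libraries each). None of the 3 passed after median ratio rescaling, where the differences were -0.32, -0.045 and -0.32, or without the 4 K-NAA libraries of replicate 2 that were the highest in *cyp-14A5*. *cyp-25A2* was also lost in 13 of the fits that left out a library or a time point, *cyp-31A3* in 9 and *cyp-33C3* in none of them.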

How the results depend on the processing

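The 11 genes higher and 10 lower in K-NAA became 17 higher after median ratio rescaling, stayed within 1.5 times these counts under the other settings tried with all libraries, and ranged from 5 to 12 higher and 5 to 10 lower with libraries, time points or replicates left out (5 higher in replicate 2 alone, 5 lower in replicate 1 alone). With the replicate number as a block, 11 were higher and 10 lower. No pairing of mock with K-NAA by number was seen within a time point. There, deviations of libraries with the same number correlated at a median of 0.0017 (-0.066 to 0.185, 1 of 12 over 0.1). Between time points of the same condition, the median was 0.060 in mock (17 of 66 over 0.1) and 0.021 in K-NAA (13 of 66). What the numbers share there was not tested. The block gave 7 and 2 rhythmic genes in mock at 0.30 and 0.05, in place of 5 and 1, and 1 in K-NAA.

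The 5 rhythmic genes of mock at 0.30 became 8 after quantile normalization, 0 with a linear drift, 2 with a period of 20 h and 9 with 28 h, and 0 to 10 with data left out; over all genes 1611 became 2, 131 and 2527 with the drift and the 2 periods. The gene at 0.05 became 2 with a filter of 1 TPM, 0 with the drift or with 20 h, and 0 to 2 with data left out; over all genes 155 became 0, 3 and 393 with the drift and the 2 periods. The gene of K-NAA at 0.30 became 0 with no filter, with the drift, with 20 h and without the 4 libraries, 2 with 28 h and 0 to 2 with data left out; over all genes 103 became 51, 31, 8 and 344 with no filter, the drift, 20 h and 28 h, and at 0.05 the drift gave 3 and 28 h gave 34 in place of 0. No difference in rhythm passed in the 53 genes under any setting tried (over all genes, 1 at 0.30 became 11 after median ratio rescaling, 7 after quantile normalization and 26 with 28 h, and 1 at 0.05 became 0 with the drift and without the 4 libraries). The 2 genes that differed between the mock replicates became 1 after either rescaling, and 2 to 3 with data left out; in K-NAA 0 to 1 passed. The 3 genes with a K-NAA effect that differed by replicate became 0 after median ratio rescaling and without the 4 libraries, 1 after quantile normalization and 1 to 5 with data left out. Over all genes, median ratio rescaling and quantile normalization moved the genes higher in K-NAA from 1309 to 2082 and 2004, those higher in mock replicate 2 from 2240 to 775 and 840, and those with a lower effect in replicate 2 from 2080 to 1065 and 1179, the last to 1076 without the 4 libraries, which were chosen after seeing the data.

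Alternatives for the level of single genes were run for 26 of the 53 tested P450 genes. Among those of the 26 that did not pass, the sign of the log2 fold change turned for *cyp-14A5* (-0.10 to 0.29 with data left out, -0.083 without the 4 libraries), *cyp-43A1* (-0.056 to 0.070, and -0.00074), *cyp-25A2* (-0.076 to 0.34) and *cyp-31A2* (-0.0063 to 0.027). No call on a gene for which they were run turned its sign. *cyp-43A1* turned in 15 fits. The value of *cyp-14A5* without the 4 libraries was lowered by how these libraries were picked. The causes were not tested. The study states a read number, but TPM values keep no depth of the single library. How many reads stood behind the genes under 1 TPM was therefore not known. With 2 plates per time point, differences confined to a single time point could not be resolved.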
